A study of Mus musculus with 20 samples.

Results

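Clu encodes clusterin, also called apolipoprotein J, a secreted glycoprotein that acts as a chaperone outside the cell, binds lipids and inhibits the membrane attack complex of complement. In the rodent prostate it is known as testosterone-repressed prostate message 2, because its transcript accumulates in the regressing gland after castration. A form that stays in the cell has been described to bind the apoptosis regulator Bax. Here the level of Clu was followed in the normal prostates of 5 inbred mouse strains. The array carried 2 elements whose only gene symbol was Clu, out of 11552 elements in all. They were numbered 8091 and 8283, carried the same accession, and both gave a value on every one of the 20 arrays.

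The groups were untreated male FVB/NJ, C57BL/6J, 129X1/SvJ, BALB/c and DBA/2 mice of 8 to 9 weeks, inbred and bought from breeders. The 12 mice of a strain made up 4 pools, 3 mice to a pool. In each pool equal RNA from the anterior, ventral, lateral and dorsal lobes was combined, so that no lobe or single animal could be read apart. Each amplified pool was set on its own array against 1 common reference made from RNA of all samples, with the pool in Cy5 on 2 arrays of each strain and in Cy3 on the other 2. The FVB/NJ, C57BL/6J and 129X1/SvJ mice came from one supplier and the BALB/c and DBA/2 mice from another, so that strain and supplier cannot be told apart for a difference between those 2 sets. Values are log2 ratios of pool over reference. A value of 0 means a transcript as abundant in the pool as in the reference mix, and a difference of 1 is a doubling. The arrays held between 10998 and 11251 values, with medians from -0.01 to 0.02.

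Clu was highest in FVB/NJ prostates on both elements. On element 8283 the 4 FVB/NJ pools had log2 ratios of 1.24, 1.01, 0.91 and 2.25. The C57BL/6J pools had -0.91, -1.58, -0.97 and -1.20, and the 129X1/SvJ pools had -1.17, -1.30, -1.03 and -0.67. The BALB/c pools had -0.88, -1.32, -1.30 and -1.02, and the DBA/2 pools had -1.24, -1.72, -1.73 and -0.89. All 4 FVB/NJ pools thus lay above the reference mix and all 16 other pools below it, with a gap of 1.58 between the lowest FVB/NJ pool and the highest other pool, which was 129X1/SvJ pool 4. Clu was chosen by its log2 ratios over the strains on these same arrays, so its levels are given as a description and without a test. In RNA from whole lobes, more cells that express Clu and more Clu RNA in each such cell cannot be told apart.

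Element 8091 gave the same picture except on 1 array. The FVB/NJ pools had log2 ratios of 1.43, 1.14, 0.91 and 2.44. The C57BL/6J pools had -1.02, -1.78, 0.99 and -1.21, and the 129X1/SvJ pools had -1.13, -1.13, -0.81 and -0.58. The BALB/c pools had -0.87, -1.51, -1.32 and -0.72, and the DBA/2 pools had -1.19, -1.45, -1.61 and -0.68. On this element C57BL/6J pool 3, at 0.99, lay above the lowest FVB/NJ pool by 0.08, so the groups overlapped. Without that array the lowest FVB/NJ pool stood 1.49 above the highest other pool.

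**Figure D1:**
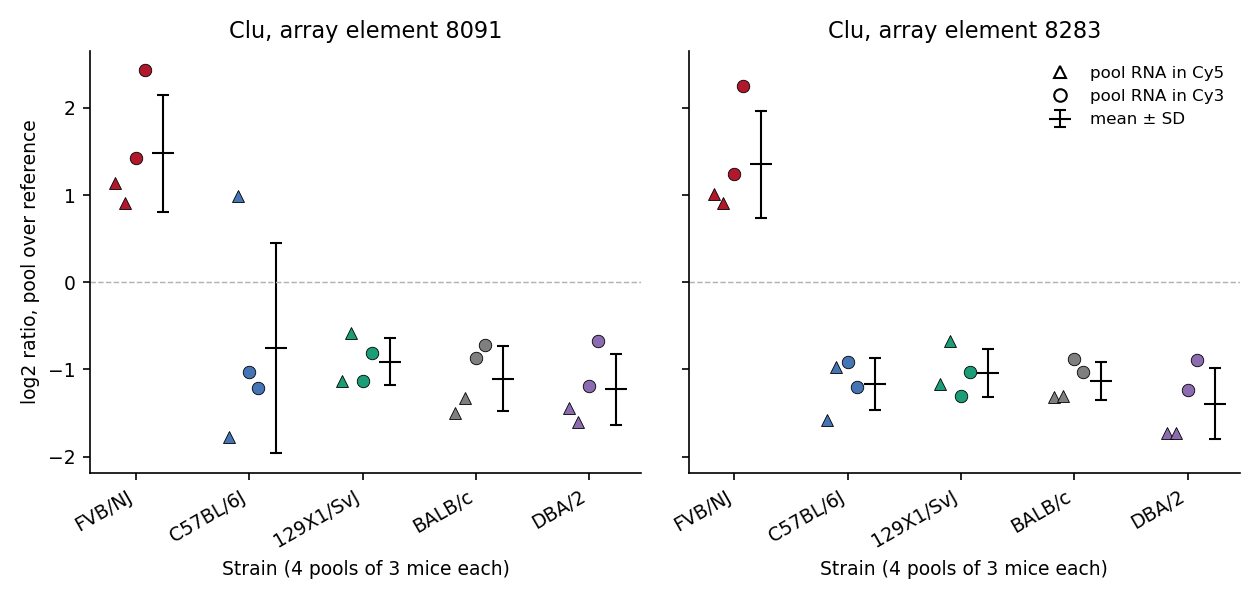
Log2 ratio of pool over reference (vertical axis) for each of the 20 pools by strain, for Clu elements 8091 (left) and 8283 (right); triangles are pools labelled with Cy5, circles pools labelled with Cy3, and the bars give the mean ± SD of 4 pools. All FVB/NJ pools lie above 0, and among the other strains only C57BL/6J pool 3 on element 8091 does, at 0.99.

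The FVB/NJ mean was 1.35 ± 0.61 on element 8283, against -1.17 ± 0.30 in C57BL/6J, -1.04 ± 0.27 in 129X1/SvJ, -1.13 ± 0.22 in BALB/c and -1.39 ± 0.41 in DBA/2 (SD, n = 4 each). On element 8091 it was 1.48 ± 0.67, against -0.76 ± 1.21 in C57BL/6J, -0.91 ± 0.27 in 129X1/SvJ, -1.10 ± 0.37 in BALB/c and -1.23 ± 0.41 in DBA/2 (SD, n = 4 each). FVB/NJ exceeded the mean of the other 4 strain means by 2.54 (SE 0.20) on element 8283 and by 2.48 (SE 0.34) on element 8091. These differences correspond to 5.80-fold and 5.58-fold. Both SE values come from a limma fit that takes 1 spread for all strains, though FVB/NJ had the largest SD on element 8283. From the pools of the 2 strains compared alone, the SE against a single strain was 0.33 to 0.37 on element 8283. The same SE was 0.36 to 0.69 on element 8091. Against single strains the fold ran from 5.26 over 129X1/SvJ to 6.72 over DBA/2 on element 8283. On element 8091 it ran from 4.71 over C57BL/6J to 6.54 over DBA/2. Without C57BL/6J pool 3 the C57BL/6J mean on element 8091 was -1.34 ± 0.39 (SD, n = 3), and FVB/NJ then stood 7.05-fold above that strain.

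Below FVB/NJ the strains could not be ordered. On element 8283 the steps between neighbouring means were 0.09 between 129X1/SvJ and BALB/c, 0.04 between BALB/c and C57BL/6J, and 0.23 between C57BL/6J and DBA/2, each less than the SD of the pools of both strains (0.24, 0.26 and 0.36). On element 8091 C57BL/6J came next and 129X1/SvJ after it, with steps of 0.16, 0.19 and 0.13 down to DBA/2, again each less than the SD of the pools. DBA/2 had the lowest mean on both elements. The 4 lower means spanned 0.35 on element 8283 and 0.47 on element 8091, against a spread of 0.39 and 0.68 between pools within strains. The step from FVB/NJ to the next strain was 2.39 on element 8283 and 2.24 on element 8091.

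On the linear scale the FVB/NJ mean corresponded to 2.55 times the reference on element 8283 and 2.79 times on element 8091. The other strains lay between 0.38 and 0.49 times the reference on element 8283, and between 0.43 and 0.59 times on element 8091. Of these linear ratios of strain means, summed over the 5 strains, FVB/NJ accounted for 59.1% and 58.1% on elements 8283 and 8091. Since the reference mixed all strains in equal parts, the linear ratios averaged over all pools should lie near 1. Over the strains, the linear ratios of the strain means averaged 0.865 on element 8283 and 0.961 on element 8091. The middle 90% of all elements ran from 0.947 to 1.06, so that element 8283 lay below that range. A linear ratio taken from mean log2 values is lower than the mean of the pools' own linear ratios where pools differ. How much of the low value came from this was not tested.

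FVB/NJ pools also differed among themselves. Pool 4 stood at 5.41 times the reference and pool 3 at 1.88 times on element 8091. The FVB/NJ pools spanned 1.34 on element 8283 and 1.53 on element 8091, where the other strains spanned 0.44 to 0.84 on element 8283 and, apart from C57BL/6J, 0.55 to 0.93 on element 8091. The lowest FVB/NJ pool was nevertheless at 0.91 on both elements, 1.88 times the reference mix. Across all 5 strains the SD of Clu within strains was 0.39 on element 8283 and 0.68 on element 8091, above that of 89.2% and 97.3% of the 11159 elements tested, whose median was 0.22. Differences between strains nevertheless made up 90.2% of the variance of element 8283 and 74.7% of that of element 8091.

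In the size of its FVB/NJ difference Clu had rank 3 (element 8283) and rank 4 (element 8091) of the 11159 elements. Above both stood Vnn1, a pantetheinase that releases cysteamine, at 2.68, and an element of Mgst1, a microsomal glutathione transferase, at 2.59. Only 7 elements reached a difference of 2. These included 2 further Mgst1 elements at 2.40 and 2.34.

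The 2 Clu elements could be set against each other array by array. They differed by a median of 0.13 and at most 0.30 on 19 arrays, and by 1.96 on the array of C57BL/6J pool 3. Over all 20 arrays Pearson's r was 0.93 and Spearman's rho 0.94, and without that array they were 0.99 and 0.96. Much of that r came from the distance between FVB/NJ and the rest. Among the other 16 pools r was 0.64, and among 15 of them, without C57BL/6J pool 3, it was 0.90 with a rho of 0.92. The elements were hybridized to the same labelled RNA on each array, so that they repeat the spot and not the pool.

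**Figure D2:**
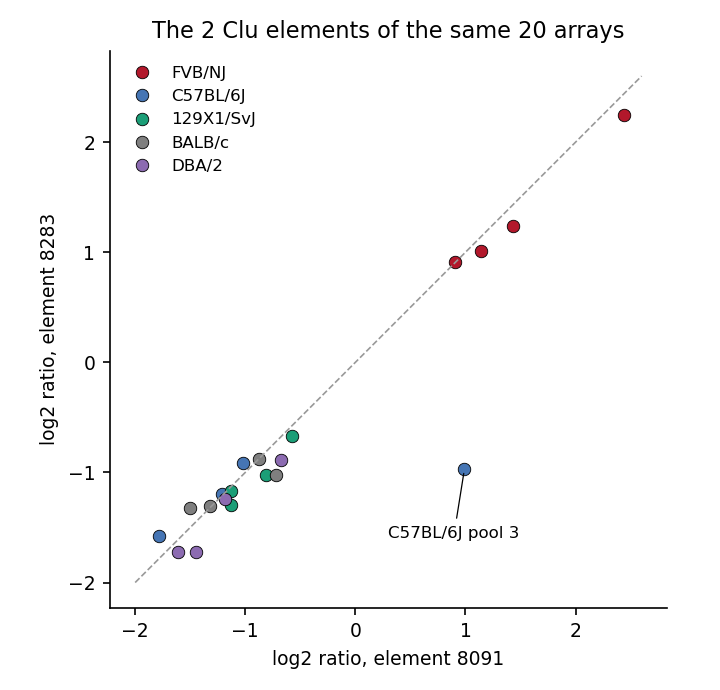
Log2 ratio of Clu on element 8283 (vertical axis) against element 8091 (horizontal axis), 1 point per array, coloured by strain; the dashed line marks equal values. On 19 arrays the elements differ by at most 0.30, and on C57BL/6J pool 3 by 1.96.

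The second Clu element was numbered 192 after the first, and 604 pairs of tested elements shared an accession at that same offset. Over 12030 such pair and array values the median absolute difference was 0.13, the 99th percentile 0.89, and 0.715% exceeded 1. Clu on C57BL/6J pool 3 was among the 15 values (0.125%) that were at least 1.96. On that array 2 of the 604 pairs differed by more than 1, and they were Clu and Ccna2, the gene for cyclin A2, whose element is numbered directly after Clu. Ccna2 read 2.04 on element 8092 and 0.15 on its copy 8284 of that array. In the other C57BL/6J pools element 8092 read -0.17 to 0.33. The elements just before Clu 8091, for Omt2b and Bag1, read -0.07 and -0.31 on that array, within the range of the other C57BL/6J pools. Chek1, numbered after Ccna2, read 0.34 there, above the 0.15 to 0.20 of the other C57BL/6J pools. Its copy read 0.61 on that array, likewise above the others (0.05 to 0.25). The 20 arrays had between 0 and 14 pairs that differed by more than 1, with a median of 2. Whether the spot of Clu 8091 was disturbed on this array was not tested.

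The dye was balanced within strains, so that its effect on Clu could be tested apart from the strain pattern. Pools labelled with Cy5 read 0.36 lower than pools labelled with Cy3 on element 8283 (difference -0.36, SE 0.14, limma adjusted p = 0.0922) and 0.26 lower on element 8091 (difference -0.26, SE 0.27, adjusted p = 0.551). Neither passed at an adjusted p of 0.05, which 15.9% of all elements did (8.57% higher and 7.37% lower in Cy5). The array of C57BL/6J pool 3 bears on this result, since without it the difference on element 8091 was -0.52 with an adjusted p of 0.0236. On element 8283 the adjusted p was 0.0497 without 129X1/SvJ pool 2 and 0.0256 without 129X1/SvJ pool 4.

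By strain, the Cy5 minus Cy3 difference on element 8283 was -0.78 in FVB/NJ, -0.22 in C57BL/6J, 0.24 in 129X1/SvJ, -0.36 in BALB/c and -0.66 in DBA/2. Both Cy5 pools lay below both Cy3 pools in FVB/NJ, BALB/c and DBA/2, on both elements. The strain pattern stood in each dye. Within Cy5 arrays FVB/NJ averaged 0.96 on element 8283, against -1.31 for the other 4 strains, a difference of 2.27. Within Cy3 arrays FVB/NJ averaged 1.74, against -1.06 for the others, a difference of 2.80. On element 8091 these differences were 2.07 in Cy5 and 2.89 in Cy3. With 2 pools per strain and dye, the change of the strain difference with dye was not tested.

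To see what moved with Clu, 5661 genes with a value on every array were ranked by the correlation of their element with Clu 8091 over the 20 pools. The points share the array, the dye and the strain, and FVB/NJ lies far from the rest, so that r is a description only. The median r was 0.02, and 8 genes exceeded 0.70 while 17 fell below -0.70. The 10 genes most like Clu were Vcan (0.83), Rnf225 (0.83), Tfpi (0.78), Lpar1 (0.73), Il17b (0.73), 1700010B08Rik (0.71), Adh1 (0.71), Zfp830 (0.70), Tfap2c (0.70) and Hbb-b1 (0.69). With element 8283 in place of 8091, 6 of these 10 were again among the 10 highest, led by Rnf225 at 0.91. A gene ranked high or low by this r tends to stand apart in FVB/NJ by the ranking itself, so the FVB/NJ differences of these genes, in a test that 2.55% of all elements passed, only describe them.

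Rnf225, a RING finger protein, had the highest r with Clu 8283 and the next highest after Vcan with Clu 8091. Its FVB/NJ pools read 0.65 to 1.35, against -0.81 to -0.11 in the other 16 pools, with a difference of 1.52 (SE 0.12, 2.86-fold, limma adjusted p = 1.33e-07 over all elements). Its r with Clu 8091 over the 16 pools outside FVB/NJ was -0.05. Tfpi, the inhibitor of the tissue factor pathway of coagulation, read 0.38 to 0.81 in FVB/NJ pools, against -0.73 to 0.07 in the others (difference 0.91, SE 0.13, adjusted p = 0.000293). Its r outside FVB/NJ was 0.13. Likeness to Clu in these genes thus lay in the step between FVB/NJ and the rest.

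Vcan encodes the matrix proteoglycan versican. It had the highest r with a much smaller step, of 0.39 (SE 0.08, adjusted p = 0.0106), and its pools overlapped (0.14 to 0.49 in FVB/NJ, -0.23 to 0.17 in the others). Its r outside FVB/NJ was 0.51 with Clu 8091 and 0.18 with Clu 8283. Adh1, an alcohol dehydrogenase that oxidizes retinol, rose by 0.64 in FVB/NJ (SE 0.10, adjusted p = 0.000831), and 1700010B08Rik rose by 0.77 (SE 0.14, adjusted p = 0.00239). The cytokine gene Il17b was higher by 0.58 (SE 0.13, adjusted p = 0.0149), but its second element had 0.34 (adjusted p = 0.213). The calls of Vcan and Il17b each rested on 2 FVB/NJ pools. Without FVB/NJ pool 2 or 4 the adjusted p of Vcan was 0.0803 or 0.0563, and without FVB/NJ pool 1 or 4 that of Il17b was 0.0834 or 0.117. Lpar1, a receptor for lysophosphatidic acid (0.23, adjusted p = 0.254), Zfp830 (0.15, adjusted p = 0.399) and Tfap2c, the transcription factor AP-2 gamma (0.35, adjusted p = 0.144), did not pass the FVB/NJ test. The adjusted p of Tfap2c was 0.036 without 129X1/SvJ pool 4. Tfap2c kept an r of 0.39 with Clu 8091 and 0.67 with Clu 8283 outside FVB/NJ.

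Hbb-b1, the beta globin of red blood cells, was the tenth gene of this ranking. Its FVB/NJ pools read 0.14 to 0.91, against -0.91 to 0.47 in the others (difference 0.82, SE 0.21, adjusted p = 0.0452), and leaving out any of 16 single pools raised that p above 0.05, up to 0.238 without FVB/NJ pool 4. Of further red cell genes, chosen after this value was seen, Fech, the ferrochelatase of haem synthesis, was the other one measured by an element of its own and had -0.34 (SE 0.11, adjusted p = 0.167). The part of blood in the Clu level was not tested.

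The 5 genes most unlike Clu were Sec22b (-0.86), Spint1 (-0.84), Lipo3 (-0.84), H2-Eb1 (-0.82) and Il1r2 (-0.82). All 5 were lower in FVB/NJ with no overlap of pools, which the ranking itself favours. The share of all genes without overlap was not counted. H2-Eb1, a class II histocompatibility beta chain, read -1.95 to -1.40 in FVB/NJ, against -0.22 to 0.59 in the others (difference -1.91, SE 0.13, adjusted p = 1.09e-08). Spint1, an inhibitor of the protease that activates hepatocyte growth factor, had a difference of -1.17 (SE 0.10). Il1r2, the decoy receptor of interleukin 1, had -1.18 on both of its elements (SE 0.13 on element 4832). Sec22b, a SNARE of transport between endoplasmic reticulum and Golgi, had -1.34 (SE 0.11) on element 3305. Its 2 other elements did not share this (0.03 and 0.48), and their r with Clu 8091 was 0.20 and 0.46. Outside FVB/NJ the r of these 5 genes with Clu 8091 lay between -0.25 and 0.16.

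**Figure D3:**
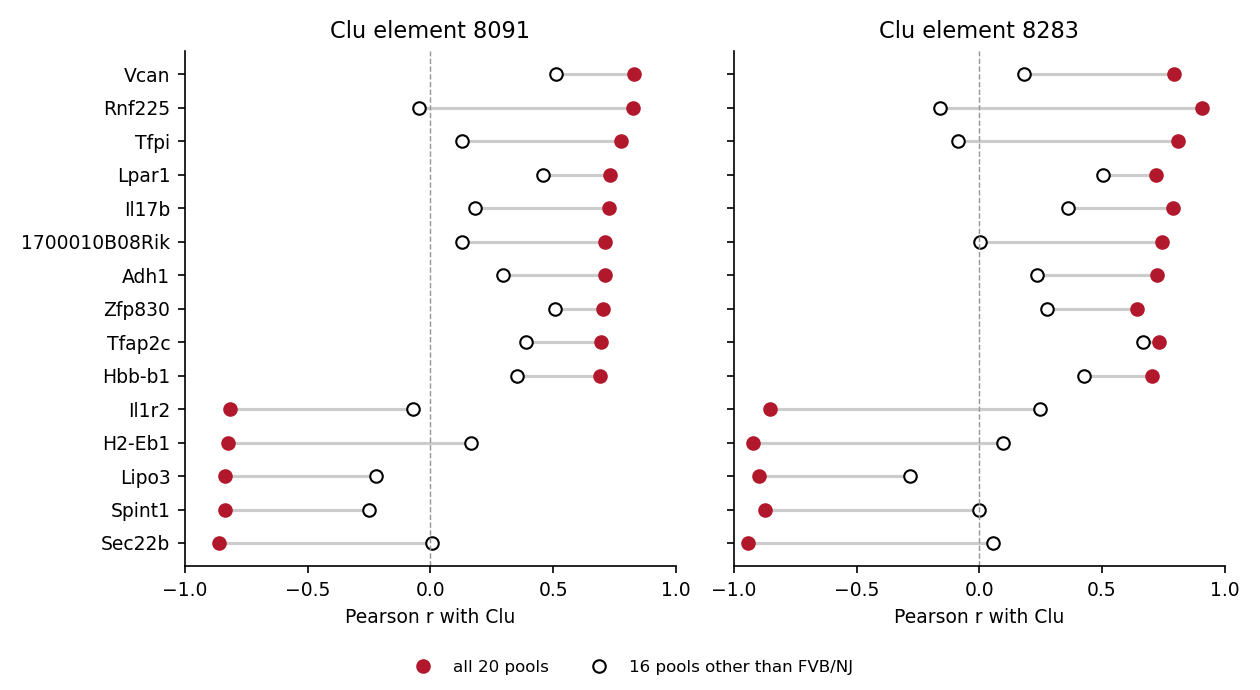
Pearson r with Clu element 8091 (left) and 8283 (right) for the 10 genes most like and the 5 most unlike Clu 8091; filled points use all 20 pools and open points the 16 pools outside FVB/NJ. For Rnf225 and element 8091 r is 0.83 over 20 pools and -0.05 over 16.

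Within strains, Clu pools deviated together on both elements (r of deviations 0.72 over 20 arrays). The genes whose deviations followed Clu 8091 most were Dhrsx (0.71), C2cd2l (0.68), Tnni2 (0.64), Emp3 (0.63) and Slc25a5 (0.63). None of the 5 was among the 5 highest for Clu 8283, where C2cd2l had 0.72 and the others 0.38 to 0.55. The C57BL/6J pools, with an SD of 1.21 on element 8091, weigh heavily in this ranking. Pool 3 of that strain was the array on which the Clu elements disagreed.

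Genes that share a role with Clu were then described from lists, beside the background of 2.55% of all 11159 elements called in the FVB/NJ test (1.22% higher and 1.34% lower) and 11.3% that passed the F test over the 5 strains. Of 9 measured apolipoprotein and lipid carrier genes, 1 was higher, 1 was lower and 6 passed the F test. Apod, the apolipoprotein D carrier of small lipids, rose by 0.71 in FVB/NJ (SE 0.14, adjusted p = 0.00408), with pools at 0.30 to 0.89, against -0.79 to 0.30 in the others. Azgp1, a zinc-binding glycoprotein of lipid mobilization, fell by 0.71 (SE 0.12, adjusted p = 0.00135), though its other pools (-1.14 to 1.11) enclosed the FVB/NJ pools (-0.92 to -0.70). Apoc1 had 0.41 (adjusted p = 0.111). The counts take 1 element per gene. Rbp4, the retinol carrier of plasma, had -0.10 (adjusted p = 0.937) on the element counted but -0.57 (SE 0.10, adjusted p = 0.00275) on element 9196. The list's median difference was -0.10, against 0.0022 over all elements.

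Of 4 measured complement genes, 1 was lower and 3 passed the F test. C1ra, a protease of the first complement component, fell by 0.54 (SE 0.12, adjusted p = 0.0136), a call lost without FVB/NJ pool 1 (adjusted p = 0.0704) or pool 4 (adjusted p = 0.103). Its FVB/NJ pools (-0.77 to -0.25) lay within the range of the others (-0.78 to 0.63). The complement regulator vitronectin (Vtn), which like clusterin inhibits the terminal complex, had 0.04 (adjusted p = 0.979). The 9 measured receptors and endocytic partners of clusterin and its ligands gave no call in either direction, with a median of 0.05. Among them the lipoprotein receptors Vldlr and Lrp1 had 0.24 (adjusted p = 0.393) and 0.11 (adjusted p = 0.875). Of this list Tgfbr2, a receptor of transforming growth factor beta, passed the F test.

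Clu rises in the prostate after androgen withdrawal, so genes of that response were listed as well. Of 25 measured genes induced in the regressing prostate, none was higher in FVB/NJ, 1 was lower and 6 passed the F test, with a median of 0.00082. The lower gene was Mmp7, the matrix metalloproteinase matrilysin, with a difference of -0.86 (SE 0.15, adjusted p = 0.0016). Its FVB/NJ pools read -1.43 to -0.71, within the range of the others (-1.94 to 1.32), and its second element had -0.97 (adjusted p = 0.00352). Igfbp3, an insulin-like growth factor binding protein, had 0.31 (adjusted p = 0.188), Fos 0.52 (adjusted p = 0.349) and Hspb1 0.18 (adjusted p = 0.765). Of 14 measured genes that androgen induces, 3 were lower, none was higher and 7 passed the F test, with a median of -0.13. The 3 were Azgp1, Egf, the epidermal growth factor (-0.89, SE 0.20, adjusted p = 0.0149), and the serine protease gene Tmprss2 (-0.42, SE 0.10, adjusted p = 0.0363). The FVB/NJ pools of Egf and Tmprss2 overlapped the others, and their calls were lost without any 1 of 3 pools of FVB/NJ for Egf (pools 1, 2 and 3, adjusted p up to 0.0708) and of 13 pools for Tmprss2 (adjusted p up to 0.166). Odc1, the ornithine decarboxylase of polyamine synthesis, had 0.32 (adjusted p = 0.144).

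Of 22 measured genes of the BCL2 family and intrinsic apoptosis, 1 was lower, none was higher and 4 passed the F test, with a median of 0.03. Casp6, an executioner caspase, fell by 0.51 (SE 0.13, adjusted p = 0.0333), a call lost without any 1 of 4 pools (adjusted p up to 0.204 without FVB/NJ pool 1). The others were FVB/NJ pool 3 and DBA/2 pools 1 and 3. The FVB/NJ pools of Casp6 (-0.78 to -0.09) lay within the range of the other strains (-0.80 to 0.45). Bik, a BH3-only killer protein, had 0.40 (adjusted p = 0.124). Of 30 measured heat shock and endoplasmic reticulum chaperones, 1 was higher, none was lower and 4 passed the F test. The median was 0.12, against 0.0022 over all elements. On the 1 element counted per gene 24 of the 30 differences were positive, which was not tested. Elements of the same gene could differ in sign, as for Canx, Hspa9 and Hsp90aa1. The higher gene was the small heat shock protein Hspb8, with 0.39 (SE 0.09, adjusted p = 0.0279), a call lost without FVB/NJ pool 2, 3 or 4 (adjusted p 0.102 to 0.146). Its FVB/NJ pools (0.13 to 0.46) lay within the range of the others (-0.54 to 0.68). Clu, itself chosen by its strain pattern, lay at 2.48 and 2.54, beyond every gene of these 7 lists.

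**Figure D4:**
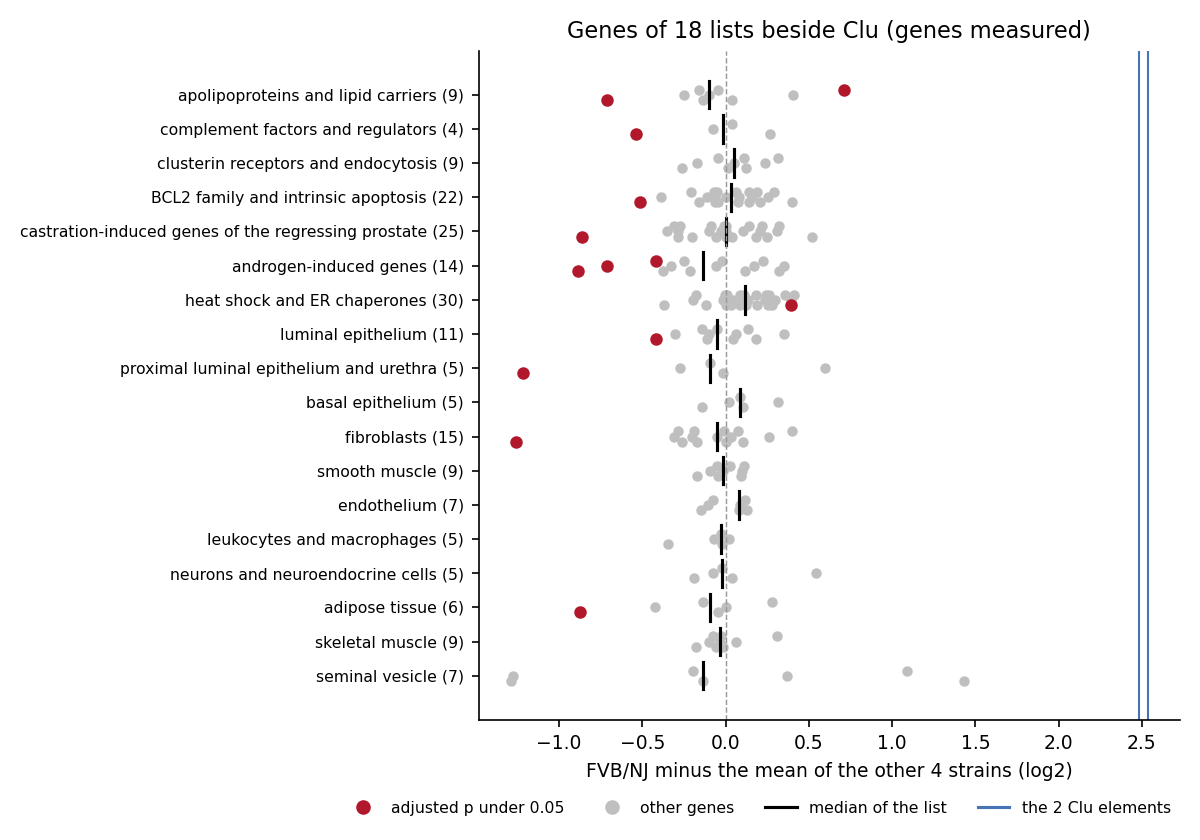
Difference of FVB/NJ minus the mean of the other 4 strains (horizontal axis, log2) for the measured genes of 18 lists, 1 point per gene; red points passed the FVB/NJ test at an adjusted p of 0.05, black bars give list medians and blue lines the Clu elements at 2.48 and 2.54. No listed gene lies as far to the right as Clu.

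Markers of the cell types a dissected prostate could hold were read in the same way. The values are ratios to a mix of the same tissue, so that they tell differences between pools and not whether a marker was present. None of the 11 marker lists had a gene higher in FVB/NJ. Over all elements 1.22% were called higher and 1.34% lower, so that lists this short would hold few calls or none at that share. No call was made among 5 basal epithelial, 9 smooth muscle, 7 endothelial, 5 leukocyte, 5 neuronal, 9 skeletal muscle and 7 seminal vesicle genes. One gene was lower in each of the other 4 lists. Among 11 luminal genes it was Tmprss2, whose second element had -0.24 (adjusted p = 0.589). Cdh1, the E-cadherin of epithelial junctions, had 0.14 (adjusted p = 0.879) on the element counted but -0.35 (SE 0.08, adjusted p = 0.0235) on element 9789. Among 5 genes of proximal luminal and urethral epithelium it was the uroplakin gene Upk1b, with pools at -1.30 to -0.75 in FVB/NJ, against -0.59 to 1.12 in the others (difference -1.22, SE 0.13, adjusted p = 4.68e-06). Psca, of the same list, had 0.60 (adjusted p = 0.195). Among 15 fibroblast genes it was Col6a3, a collagen VI chain, with -1.27 to -0.77 in FVB/NJ, against -0.66 to 1.13 in the others (difference -1.26, SE 0.14, adjusted p = 1.03e-05). Among 6 adipose genes it was Car3, a carbonic anhydrase (-0.87, SE 0.21, adjusted p = 0.0246), a call lost without FVB/NJ pool 1, 3 or 4 (adjusted p up to 0.147). The FVB/NJ pools of Car3 (-1.19 to -0.53) lay within the range of the others (-1.25 to 1.21).

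The median log2 ratio of the luminal list ran from -0.08 to 0.03 over the FVB/NJ pools, against -0.16 to 0.17 over the other pools, and that of the basal list from -0.02 to 0.13, against -0.19 to 0.22. The fibroblast list ran from -0.20 to 0.01, against -0.18 to 0.28, and the smooth muscle list from -0.18 to 0.16, against -0.43 to 0.31. The adipose list ran from -0.16 to -0.12 in FVB/NJ pools, against -0.48 to 0.30. In the median of each of these lists the FVB/NJ pools overlapped the others, though those of Col6a3, a member of the fibroblast list, did not. The seminal vesicle list varied most between pools, from -3.72 to -0.05 in FVB/NJ, against -3.22 to 1.41 in the others. Its secretory gene Svs2 ran from -6.84 to 0.12 in FVB/NJ pools, against -7.63 to 2.56. The part of seminal vesicle tissue in the Clu level was not tested.

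Clu lies on mouse chromosome 14 in the RefSeq gene table of assembly GRCm38.p6. Its 5 nearest measured genes on one side were Ccdc25, Pnoc, Hmbox1, 4930578I06Rik and Blk, and on the other Stmn4, Dpysl2, Bnip3l, Ppp2r2a and Ebf2. None of these 10 passed the FVB/NJ test, and their differences ran from -0.10 for Ccdc25 to 0.21 for 4930578I06Rik on the element counted. The second elements of Ccdc25 and Hmbox1 had 0.05 and 0.0044. Of these neighbours 4930578I06Rik passed the F test over the strains (adjusted p = 0.00339). Bnip3l, a mitochondrial protein of the BCL2 family, had 0.06 (SE 0.10, adjusted p = 0.928), and Stmn4, a stathmin of neurons, had 0.19 (SE 0.17, adjusted p = 0.808). Of the 198 other measured genes of chromosome 14, 1 was higher and 2 were lower in FVB/NJ, against 2.55% of all elements called in either direction. The higher one was the ribonuclease gene Rnase1 (0.55, adjusted p = 0.0149), and the lower ones were the mast cell chymase gene Cma1 (-0.56, adjusted p = 0.0122) and Oit1 (-0.59, adjusted p = 0.0196). No neighbour had a difference above 0.21, against 2.48 and 2.54 for Clu, which was chosen by its strain pattern.

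**Figure D5:**
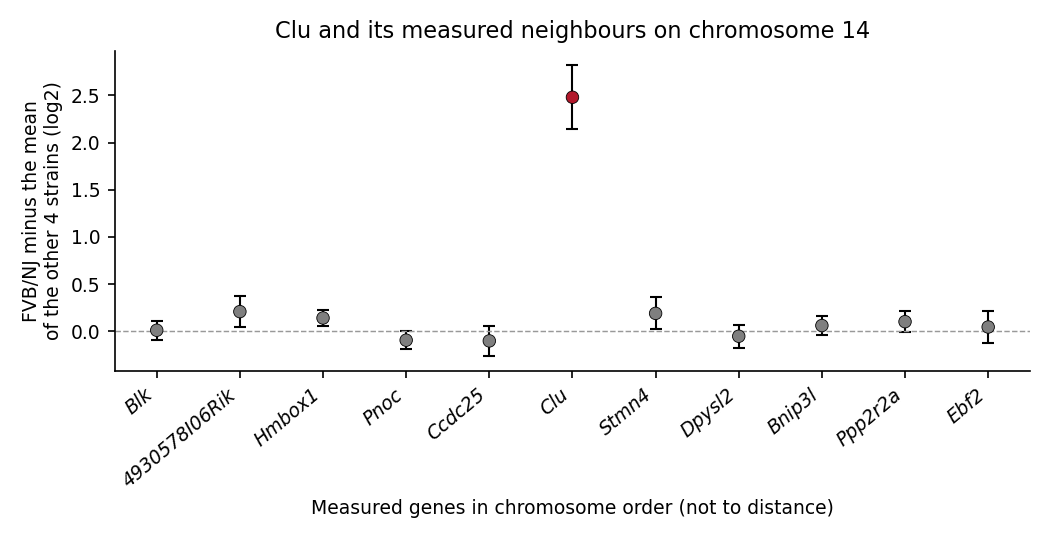
Difference of FVB/NJ minus the mean of the other 4 strains (vertical axis, log2, bars ± SE) for Clu element 8091 and the 5 nearest measured genes on either side on chromosome 14, in gene order and not to distance. Clu stands at 2.48 and its 10 neighbours lie between -0.10 and 0.21.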

How the data were processed

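RNA of 20 pools was measured on 20 cDNA arrays of 2 colours from 1 print batch. The deposited values are log2 ratios that the authors made by subtracting the median background from the median signal of each spot, setting weak spots to missing and normalizing each array by print-tip loess, so that levels of different genes cannot be compared. They were used as deposited, and gene symbols came from the platform's annotation, elements with several symbols being left unnamed. A gene with several elements was represented by the one with the fewest missing values.

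An element was tested if no more than 3 of its values were missing and each strain kept 2 or more (11159 elements, with 393 left out). limma 3.58.1 in R 4.3.3 tested FVB/NJ minus the mean of the other 4 strain means, an F test over the strains and, with strain in the model, the dye. Benjamini-Hochberg adjusted p-values over all elements were called under 0.05, for the F test at up to 0.1. The methods named SAM, which was not run. The authors also dropped elements of low abundance, which the deposited ratios do not allow. The fits were tested on simulated data. The p-values measure the spread between pools, and the number of arrays limits their precision.

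Clu and the gene lists were chosen with earlier results of these data known. Named genes were every Clu element, the 10 genes with the highest and the 5 with the lowest correlation with Clu 8091, the 5 with the highest correlation of deviations from strain means, up to 4 genes past the FVB/NJ test per list with further listed genes as examples, the 5 nearest measured genes on each side and elements next to Clu on the array. Array scaling, filters, moderation, dye, pool number and single pools were varied. The pool number was not taken as a pairing.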

Additional observations from a re-analysis of the deposited data

How the results depend on the processing

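FVB/NJ stood above the mean of the other strains for Clu under every alternative run. The dye term and the replicate block could not move this difference, since dye and pool number were balanced over the strains. The difference of element 8091 moved from 2.48 by more than the spread between pools only with quantile normalization, at 3.22, and that of element 8283 from 2.54 likewise, at 3.13. Leaving out 1 pool gave 2.16 to 2.67 on element 8091 and 2.24 to 2.68 on element 8283. The mean of both elements gave 2.51.

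The dye difference of Clu kept its direction under every alternative run, but its size did not hold. With the pool number as a replicate block it shrank to -0.13 (adjusted p = 0.545) on element 8283 and -0.12 (adjusted p = 0.826) on element 8091. In all strains but 1, however, the pool number fixed the dye in the same way. Block and dye thus largely overlapped, and this shrinkage cannot tell whether the dye difference holds. On element 8283 the dye difference passed the test with quantile normalization (-0.76, adjusted p = 0.00202). Leaving out 1 pool gave -0.52 to -0.13 on element 8091 (adjusted p 0.0236 to 0.786) and -0.43 to -0.25 on element 8283 (adjusted p 0.0256 to 0.159).

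Quantile normalization raised the elements called in FVB/NJ to 454 (224 higher and 230 lower) and scaling the arrays to the same spread to 441 (214 higher and 227 lower), against 285 (136 higher and 149 lower). Leaving out 1 pool gave 171 to 442 (66 to 207 higher and 105 to 235 lower). The F test called 1260 elements, and 1028 to 1745 without 1 pool. The dye test called 1778, and 1405 to 2106 without 1 pool.

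Pools of the same number in different strains had deviations from strain means with a median r of 0.21 (-0.34 to 0.44, 40 pairs), against -0.05 (-0.45 to 0.41, 120 pairs) for pools of other numbers. In the 129X1/SvJ strain the dyes of the numbers ran the other way round, and among pools of the same dye the medians were 0.30 (24 pairs) and 0.21 (56 pairs), among pools of opposite dye -0.18 (16 pairs) and -0.27 (64 pairs). Of the 20 pools 11 correlated best with their own number. Not every same-number pair exceeded 0.1, but the dye weighs on this mark. Same-number pairs of the same dye ran from 0.08 to 0.44, and those of opposite dye reached at most 0.06. Whether pools of the same number shared a step of processing was not tested. The labels name nothing that a number shares, so the number was not used as a pairing. Each strain had 1 pool of each number, so that a replicate block by number could not move the Clu differences of 2.48 and 2.54. With that block the FVB/NJ test called 339 elements and the dye test 2366, and no call among the 38 other named elements changed. Of the 23 of these that passed the FVB/NJ test, 14 did so under every setting. Without moderation Casp6 (adjusted p = 0.0503), Car3 (adjusted p = 0.0591) and Hbb-b1 (adjusted p = 0.0936) also lost their call. Directions turned for 3 neighbours of Clu that passed no test. Leaving out 1 pool gave -0.23 to 0.088 for Ccdc25, -0.046 to 0.16 for Ebf2 and -0.096 to 0.074 for Blk, which also stood at -0.0077 with arrays scaled to the same spread.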
